A study of Mus musculus with 16 samples.

Results

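The 9 genes described here, Neurog2, Eomes, Neurod1, Sox4, Sox11, Igfbpl1, Dcx, Calb2 and Tubb3, are markers of intermediate progenitors, neuroblasts and immature granule neurons of the dentate gyrus. They were taken by gene name from the abundance tables, which hold 24421 gene names, and all 9 were among the 17317 that passed the filter on low values. RNA of the dentate gyrus was sequenced from male C57BL/6 mice aged 1 year, in 4 groups of 4 libraries with 2 pooled mice per library. The p16 WT CTL and p16 WT RUN mice carried functional p16Ink4a, whereas the p16 KO CTL and p16 KO RUN mice were homozygous for a null p16Ink4a allele that leaves p19Arf functional. That knockout was made in FVB and backcrossed to C57BL/6, and it is constitutive rather than limited to stem cells. Mice labelled RUN could use a wheel at will for 12 days, and CTL mice were sedentary.

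New granule neurons arise at the inner edge of the granule cell layer from radial glia-like stem cells, which give rise to dividing intermediate progenitors, then to migrating neuroblasts and then to immature neurons. The basic helix-loop-helix factor Neurog2 and the T-box factor Eomes (Tbr2) mark intermediate progenitors, Neurod1 and the SoxC factors Sox4 and Sox11 act in the passage to the neuronal fate, and Igfbpl1, doublecortin (Dcx), calretinin (Calb2) and class III beta-tubulin (Tubb3) mark neuroblasts and young neurons. This process declines with age, and several of these genes are also used by mature cells: Tubb3 by neurons in general, Neurod1 by mature granule neurons, Calb2 by hilar mossy cells and some interneurons, and Sox4 by cells maturing along the oligodendrocyte lineage. In bulk RNA, fewer cells of a type and less RNA per cell cannot be told apart.

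In the mm10 coordinates of the tables, Neurog2 lies at chr3:127633145-127635631 and Eomes at chr9:118478189-118486132, both on the plus strand. Neurod1 lies at chr2:79452641-79456636, Sox4 at chr13:28950730-28953682 and Sox11 at chr12:27334268-27342718, all on the minus strand. Igfbpl1 lies at chr4:45809507-45826827 and Dcx at chrX:143855842-143933219, on the minus strand. Calb2 lies at chr8:110142538-110168206 on the minus strand and Tubb3 at chr8:123411564-123422010 on the plus strand. Each value is for the exons of the whole gene, and the longest annotated transcript has 1 exon for Sox4 and Sox11, 2 for Neurog2 and Neurod1, and 11 for Calb2. RefSeq promoter sequences (GRCm38.p6) were matched for 7 of the 9 genes, all but Igfbpl1 and Calb2. The 250 bases before the transcription start are shown for 4 of them, 5′ to 3′: Eomes, the defining gene of intermediate progenitors, Dcx, the most used marker of neuroblasts, and Neurod1 and Sox11, whose levels varied together. Capitals mark the E-box CANNTG, the same letters on both strands, the general motif of basic helix-loop-helix factors.
Eomes: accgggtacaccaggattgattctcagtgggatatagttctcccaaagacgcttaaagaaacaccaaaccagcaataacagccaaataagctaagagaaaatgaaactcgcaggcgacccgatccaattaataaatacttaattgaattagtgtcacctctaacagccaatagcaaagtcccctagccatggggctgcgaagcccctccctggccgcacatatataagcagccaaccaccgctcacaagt
Dcx: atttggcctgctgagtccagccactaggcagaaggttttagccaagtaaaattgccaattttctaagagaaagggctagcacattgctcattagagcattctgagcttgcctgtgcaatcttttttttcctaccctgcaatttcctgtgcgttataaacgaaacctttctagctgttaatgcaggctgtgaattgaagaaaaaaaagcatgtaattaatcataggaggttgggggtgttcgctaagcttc
Neurod1: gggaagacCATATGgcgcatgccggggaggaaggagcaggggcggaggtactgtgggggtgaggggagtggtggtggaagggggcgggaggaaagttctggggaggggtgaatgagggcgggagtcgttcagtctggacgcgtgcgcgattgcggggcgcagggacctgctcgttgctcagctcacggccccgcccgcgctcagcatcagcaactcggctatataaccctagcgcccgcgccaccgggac
Sox11: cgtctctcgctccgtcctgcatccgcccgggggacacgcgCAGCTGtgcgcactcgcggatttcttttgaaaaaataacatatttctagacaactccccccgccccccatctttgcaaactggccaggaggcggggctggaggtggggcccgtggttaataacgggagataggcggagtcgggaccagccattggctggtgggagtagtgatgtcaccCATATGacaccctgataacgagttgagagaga
These windows lie at chr9:118477939-118478188 (plus strand), chrX:143933220-143933469, chr2:79456637-79456886 and chr12:27342719-27342968 (minus strand). The Neurod1 window holds 1 E-box and the Sox11 window 2, while the Eomes and Dcx windows hold none. Of all 32851 windows of this length, 66.2% hold at least 1 E-box, so the motif is common and its presence is a description only. A narrower form associated with Neurog2 and Neurod1, CAGATG or CATCTG on the other strand, is in none of the 4 windows and in 14.4% of all windows.

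Levels are given as TPM, transcripts of a gene per fixed total of transcripts, a measure corrected for gene length, so that they can be compared between genes. Over the 16 libraries Tubb3 had the highest mean level, 267 TPM (SD 33.4, n = 16), followed by Calb2 with 187 (SD 39.1), Neurod1 with 52.3 (SD 10.8), Sox11 with 14.0 (SD 3.00), Sox4 with 11.7 (SD 1.66) and Dcx with 4.60 (SD 0.774). Igfbpl1 at 1.01 TPM (SD 0.752), Neurog2 at 0.572 (SD 0.340) and Eomes at 0.337 (SD 0.238) came last. Of the 8 pairs of neighbours in this order, 4 kept their order in all 16 libraries, but Tubb3 exceeded Calb2 in 15, Sox11 exceeded Sox4 in 13, Neurog2 exceeded Eomes in 11 and Igfbpl1 exceeded Neurog2 in 10, so that the lowest 3 genes were not ordered beyond their spread. The reads behind them are few: from the deposited coverage and the annotated exon length, Eomes rests on about 0 to 60 reads of 150 bases per library, Neurog2 on about 11 to 63 and Igfbpl1 on about 11 to 120, against about 462 to 1578 for Dcx.

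Depth and tissue makeup differed among the libraries. The relative coverage ranged from 0.621 to 1.95 of the typical library. It was 0.900 to 1.95 in p16 WT CTL, 0.915 to 1.68 in p16 KO CTL, 0.621 to 0.877 in p16 WT RUN and 0.796 to 0.893 in p16 KO RUN. All running libraries were thus below all sedentary ones, and the part of depth in the differences was not tested. Prox1, which defines granule neurons, was found at 58.1 TPM or more in all 16 libraries, with the lowest values in p16 KO CTL replicate 8 and p16 WT CTL replicate 2. Nuclear RNAs were low in p16 WT CTL replicate 2 and p16 KO CTL replicates 6 and 7, where Malat1 stood at 202, 123 and 67.1 TPM against 359 or more in the others. Fits without these libraries, given below, keep only replicates 5 and 8 of p16 KO CTL. Pou4f1 of the habenula reached 1.94 TPM in p16 KO RUN replicate 14 against at most 0.077 elsewhere, Pou3f1 of CA1 reached 33.2 TPM in p16 KO CTL replicate 8, and Ttr of the choroid plexus reached 191 TPM in p16 KO CTL replicate 7. The knocked-out locus, Cdkn2a, was at 0 to 0.586 TPM and did not separate the genotypes, and since p19Arf uses the same locus and is retained, it does not check the labels.

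**Figure D1:**
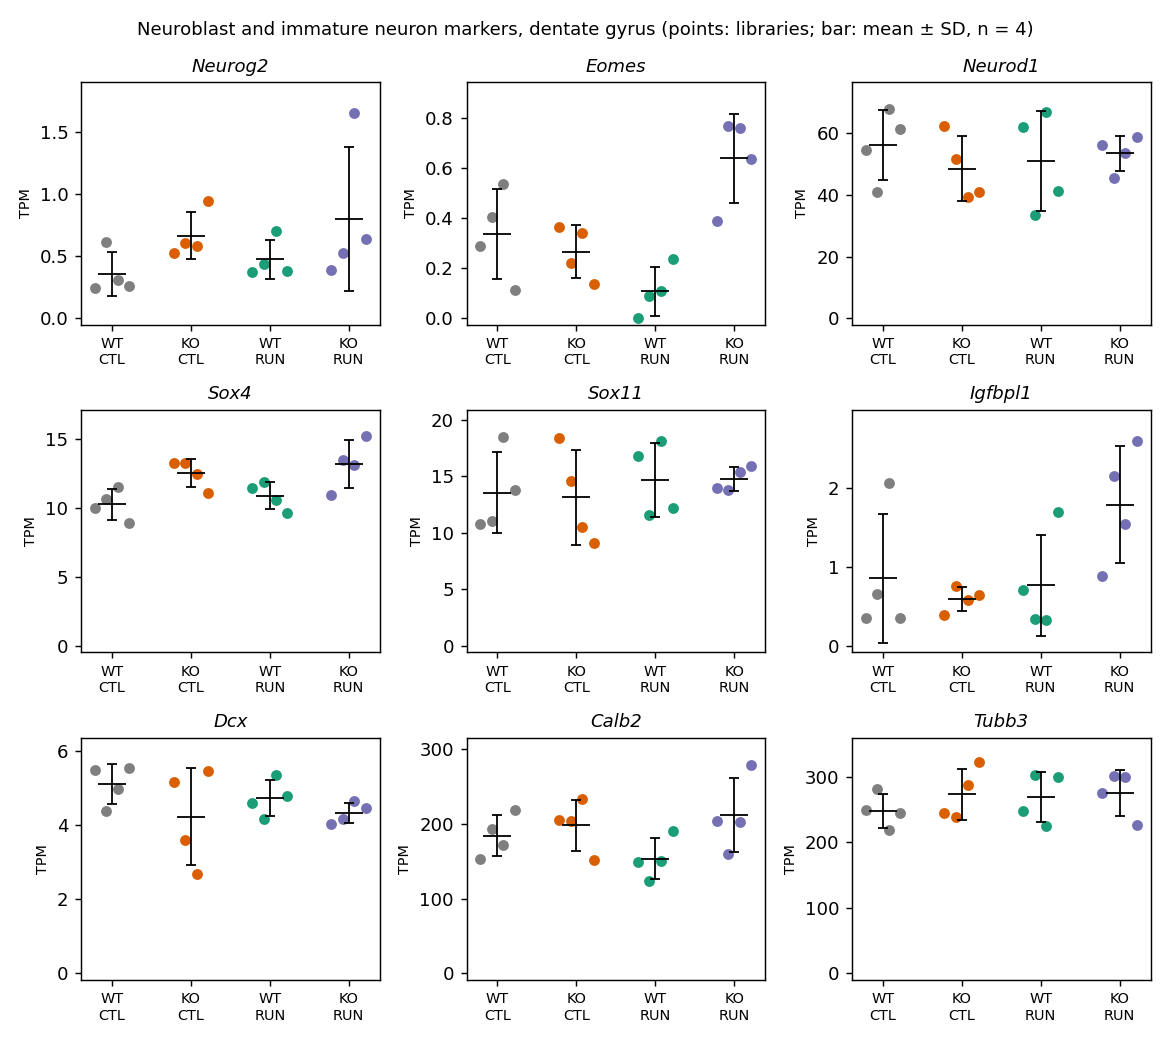
TPM of the 9 markers in each library (points) with the mean and SD of each group of 4 (bar); the vertical axes are linear and include 0. Eomes was at 0.389 to 0.77 TPM in the p16 KO RUN libraries and at 0 to 0.237 in the p16 WT RUN libraries, while Dcx, Neurod1, Sox11 and Tubb3 overlapped among all groups.

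Intermediate progenitors are marked most sharply by Eomes, and on the log2(TPM + 0.1) scale used throughout Eomes had the largest difference of the 9 markers in Set E, the comparison of running mice, whereas Igfbpl1 had the largest in Sets A and D. It was measured at 0.288, 0.405, 0.538 and 0.115 TPM in the p16 WT CTL libraries, at 0.364, 0.22, 0.34 and 0.138 in the p16 KO CTL libraries, at 0, 0.088, 0.109 and 0.237 in the p16 WT RUN libraries, and at 0.389, 0.77, 0.762 and 0.639 in the p16 KO RUN libraries. All 4 p16 KO RUN libraries lay above all p16 KO CTL and all p16 WT RUN libraries, and 3 of them lay above the other 12 libraries. The group means were 0.337 ± 0.180 TPM (SD, n = 4) in the p16 WT CTL libraries, 0.265 ± 0.106 in the p16 KO CTL libraries, 0.109 ± 0.0980 in the p16 WT RUN libraries and 0.640 ± 0.178 in the p16 KO RUN libraries. In p16 KO mice (Set A, p16 KO RUN minus p16 KO CTL), which asks what running does without p16, the log2 difference was 0.98 (SE 0.33, limma unadjusted p = 0.0162, adjusted p = 0.215). Between running mice (Set E, p16 KO RUN minus p16 WT RUN) it was 1.92 (SE 0.42, limma unadjusted p = 0.00131), the 19th smallest p of all 17317 genes, but the adjusted p was 1. A two-sided exact permutation test over the 4 and 4 libraries gave p = 0.0286 in both sets, the smallest value that this design allows.

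In p16 WT mice (Set C, p16 WT RUN minus p16 WT CTL) the mean of Eomes was lower in runners, by a log2 difference of -1.09 (SE 0.49, limma unadjusted p = 0.0523), and the libraries overlapped. It passed an unadjusted p of 0.05 in 3 of the 11 other settings and without p16 WT CTL replicate 4 or p16 WT RUN replicate 12. The test of whether running acted differently in the genotypes (interaction) gave 2.07 (SE 0.59, limma unadjusted p = 0.0031, adjusted p = 0.797). The difference in Set E stayed at an unadjusted p under 0.05 in all 8 fits that left out 1 library and in all 11 other settings that tested it, but its size depended on the constant added before the logarithm, from 0.56 with 1 TPM to 3.10 with 0.01 TPM. With 1 TPM the Set E difference of Igfbpl1, 0.68, was the larger. The same constants moved the interaction of Eomes from 0.62 to 3.28, its Set A difference from 0.36 to 1.22, its Set C difference from -0.27 to -2.06 and its genotype difference from 0.25 to 1.46. The Set A difference remained at an unadjusted p under 0.05 without each library in turn, and was 0.88 (limma unadjusted p = 0.0441) without replicate 14, which carried the habenular genes. Under quantile normalization it was 0.68 (limma unadjusted p = 0.105). In Set D, p16 KO RUN minus p16 WT CTL, Eomes was at 0.83 (SE 0.39, limma unadjusted p = 0.0613), which passed in 2 of the 11 other settings and without p16 WT CTL replicate 3 or p16 KO RUN replicate 13. Over both treatments Eomes was higher in p16 KO mice by 0.88 (SE 0.39, limma unadjusted p = 0.0361, adjusted p = 0.696), which 9 of the 16 fits without 1 library kept at an unadjusted p under 0.05, those without p16 WT CTL replicate 4, p16 WT RUN replicates 9, 10 or 11 or p16 KO RUN replicates 14, 15 or 16 being the exceptions. Sedentary mice did not share it: p16 KO CTL minus p16 WT CTL (Set B) was -0.16 (SE 0.41, limma unadjusted p = 0.712), against 1.92 in Set E.

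Neurog2, the other progenitor factor, had a different pattern. Its levels were 0.24, 0.615, 0.31 and 0.256 TPM in the p16 WT CTL libraries, 0.524, 0.607, 0.582 and 0.939 in the p16 KO CTL libraries, 0.372, 0.437, 0.703 and 0.375 in the p16 WT RUN libraries, and 0.386, 0.522, 1.65 and 0.633 in the p16 KO RUN libraries. The highest mean, that of p16 KO RUN, was carried by replicate 15, and the groups overlapped in every comparison. In sedentary mice (Set B, p16 KO CTL minus p16 WT CTL), which asks what the deletion does without running, the log2 difference was 0.84 (SE 0.33, limma unadjusted p = 0.0335, adjusted p = 0.625, exact permutation p = 0.114). It lost an unadjusted p under 0.05 in 6 of the 8 fits without 1 library, those without p16 WT CTL replicates 1, 3 or 4 or p16 KO CTL replicates 6, 7 or 8. With the nuclear RNA score as a covariate it was 0.76 (limma unadjusted p = 0.0727), and with a constant of 1 TPM 0.32 (limma unadjusted p = 0.0333). Over both treatments the genotype difference was 0.67 (SE 0.26, limma unadjusted p = 0.0212, adjusted p = 0.696), and it stayed at an unadjusted p under 0.05 in all 16 such fits, though it was 0.28 with a constant of 1 TPM. The difference in Set A was 0.02 (SE 0.40).

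Sox4 and Sox11, the related SoxC factors, behaved unlike each other. Sox4 was at 9.95, 10.6, 11.5 and 8.87 TPM in the p16 WT CTL libraries and at 13.2, 13.2, 12.5 and 11.1 in the p16 KO CTL libraries. It was at 11.4, 11.9, 10.6 and 9.61 TPM in the p16 WT RUN libraries and at 10.9, 13.4, 13.1 and 15.2 in the p16 KO RUN libraries. Sox4 was thus higher on average in p16 KO than in p16 WT mice, sedentary or running. The sedentary groups overlapped slightly in TPM, with 11.1 in p16 KO CTL replicate 8 against 11.5 in p16 WT CTL replicate 3, and did not overlap after the libraries were scaled. The Set B difference was 0.35 (SE 0.12, limma unadjusted p = 0.0143, adjusted p = 0.625, exact permutation p = 0.0286), and the Set E difference 0.28 (SE 0.11, limma unadjusted p = 0.0395, adjusted p = 1), which only 2 of the 8 fits without 1 library kept at an unadjusted p under 0.05, those without p16 WT RUN replicate 10 or p16 KO RUN replicate 13. In Set D Sox4 was higher by 0.35 (SE 0.13, limma unadjusted p = 0.0206), which was lost without p16 WT CTL replicate 4 or without p16 KO RUN replicate 14 or 16. The genotype difference over both treatments was 0.31 (SE 0.08, limma unadjusted p = 0.00121, 25th of all genes, adjusted p = 0.672), a mean of 12.8 against 10.6 TPM, and it stayed at an unadjusted p under 0.05 in all 16 fits without 1 library and in all 11 other settings. In Set B alone, without the 3 libraries low in nuclear RNA, it was 0.30 (limma unadjusted p = 0.0908). Running moved Sox4 little, with a difference of 0.04 (SE 0.08). Gpr17, a gene of committed oligodendrocyte precursors, was also higher in p16 KO mice over both treatments, by 0.50 (SE 0.14, limma unadjusted p = 0.00244, adjusted p = 0.672). The summed level of 5 oligodendrocyte precursor genes was 48.2 to 58.0 TPM in the p16 WT CTL libraries, 56.7 to 69.6 in the p16 KO CTL libraries, 50.5 to 64.2 in the p16 WT RUN libraries and 56.5 to 76.2 in the p16 KO RUN libraries, and its part in the Sox4 difference was not tested.

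Sox11 was measured at 10.8, 11.1, 18.5 and 13.8 TPM in the p16 WT CTL libraries, 18.4, 14.6, 10.5 and 9.10 in the p16 KO CTL libraries, 16.8, 11.6, 18.2 and 12.2 in the p16 WT RUN libraries, and 14.0, 13.8, 15.4 and 15.9 in the p16 KO RUN libraries. The p16 KO CTL group alone spanned 9.10 to 18.4 TPM, and every group overlapped every other. The largest Sox11 difference of the 5 sets, in Set A, was 0.15 (SE 0.19, limma unadjusted p = 0.44), and -0.01 to 0.31 in the fits without 1 library. In Set D it was 0.15 (SE 0.15, limma unadjusted p = 0.344), and 0.30 (limma unadjusted p = 0.018) without p16 WT CTL replicate 3.

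Neurod1, which drives the step from progenitor to neuron, varied in the same libraries as Sox11. It was at 54.6, 41.1, 67.9 and 61.4 TPM in the p16 WT CTL libraries, 62.4, 51.7, 39.5 and 40.9 in the p16 KO CTL libraries, 62.1, 33.4, 67.0 and 41.4 in the p16 WT RUN libraries, and 56.2, 45.6, 53.6 and 58.8 in the p16 KO RUN libraries. The groups overlapped throughout, and its largest difference of the 5 sets was -0.19 (SE 0.22, limma unadjusted p = 0.406), in Set C. This value was -0.33 to -0.01 in the fits without 1 library. In Set D it was -0.06 (SE 0.13, limma unadjusted p = 0.665), and -0.17 (limma unadjusted p = 0.0305) with the nuclear RNA score as a covariate.

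Igfbpl1, a gene of newborn neurons and neuroblasts, followed the pattern of Eomes in part. Its levels were 0.352, 0.659, 2.07 and 0.351 TPM in the p16 WT CTL libraries, 0.39, 0.766, 0.581 and 0.643 in the p16 KO CTL libraries, 0.714, 0.339, 0.325 and 1.70 in the p16 WT RUN libraries, and 0.89, 2.15, 1.54 and 2.60 in the p16 KO RUN libraries. The p16 KO RUN libraries lay above all p16 KO CTL libraries, but p16 WT CTL replicate 3 and p16 WT RUN replicate 12 fell among them. In Set A the log2 difference was 1.32 (SE 0.35, limma unadjusted p = 0.00425, adjusted p = 0.165, exact permutation p = 0.0286), and it held an unadjusted p under 0.05 in all 8 fits without 1 library and all 12 other settings, though its size was 0.75 with a constant of 1 TPM. In Set E it was 1.30 (SE 0.50, limma unadjusted p = 0.029, adjusted p = 1, exact permutation p = 0.0857), and it was not kept without p16 WT RUN replicate 10 or 11 or p16 KO RUN replicate 14 or 16, nor without a filter on low values (limma unadjusted p = 0.0503). With a constant of 1 TPM it was 0.68. In Set D it was 1.21 (SE 0.53, limma unadjusted p = 0.0479), which only 2 of the 8 fits without 1 library kept, those without p16 WT CTL replicate 3 or p16 KO RUN replicate 13, and which passed in 5 of the 12 other settings. In Set C it was -0.09 (SE 0.62). The interaction was 1.41 (SE 0.75, limma unadjusted p = 0.0798), which missed the unadjusted threshold in all 11 other settings and passed it only without p16 WT CTL replicate 1 or 4, p16 WT RUN replicate 12 or p16 KO RUN replicate 13. Without p16 WT CTL replicate 3, the running difference over both genotypes was 0.90 (limma unadjusted p = 0.0175) against 0.62 (limma unadjusted p = 0.144) with it. The genotype difference over both treatments was likewise 0.88 (limma unadjusted p = 0.0201) without this library, against 0.60 (limma unadjusted p = 0.159) with it.

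Dcx, a microtubule-associated protein of migrating neuroblasts, did not follow them. It was at 5.51, 4.39, 5.00 and 5.54 TPM in the p16 WT CTL libraries, 5.17, 3.61, 2.68 and 5.48 in the p16 KO CTL libraries, 4.61, 4.17, 5.36 and 4.80 in the p16 WT RUN libraries, and 4.04, 4.17, 4.65 and 4.47 in the p16 KO RUN libraries. The lowest values, 3.61 and 2.68, belonged to p16 KO CTL replicates 6 and 7, which are low in nuclear RNA. The Set A difference was 0.02 (SE 0.20, limma unadjusted p = 0.923), and without the 3 libraries low in nuclear RNA it was -0.31 (limma unadjusted p = 0.0527). The running difference over both genotypes was -0.05 (SE 0.12, limma unadjusted p = 0.673), and without those libraries -0.23 (limma unadjusted p = 0.0153), lower in runners. Over the 16 libraries, the log2 level of Dcx had a Pearson r of 0.67 with a score of 8 nuclear RNAs, and of 0.03 over the 14 libraries left without those farthest from the median score. The largest of its differences with all libraries, -0.25 (SE 0.21, limma unadjusted p = 0.251) in Set B and -0.23 (SE 0.11, limma unadjusted p = 0.0665) in Set D, were both towards less Dcx in p16 KO, but without the libraries low in nuclear RNA the Set B value was 0.03 (limma unadjusted p = 0.826) and the genotype difference went from -0.18 to -0.06. Without p16 KO CTL replicate 8 the genotype difference was -0.24 (limma unadjusted p = 0.046). The Set D difference passed an unadjusted p of 0.05 in 5 of the 12 other settings: -0.23 without a filter on low values (limma unadjusted p = 0.0338) and without a variance trend (limma unadjusted p = 0.0207), -0.26 under quantile normalization (limma unadjusted p = 0.0401), -0.27 with the nuclear RNA score as a covariate (limma unadjusted p = 0.0415) and -0.28 without the libraries low in nuclear RNA (limma unadjusted p = 0.035), which in Set D leaves out p16 WT CTL replicate 2.

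Calb2 and Tubb3, which label young neurons and also mature cells, had high levels. Calb2 was at 154, 194, 172 and 218 TPM in the p16 WT CTL libraries, 205, 204, 233 and 152 in the p16 KO CTL libraries, 149, 124, 150 and 190 in the p16 WT RUN libraries, and 204, 160, 203 and 279 in the p16 KO RUN libraries. The means were 153 ± 27.5 TPM (SD, n = 4) in the p16 WT RUN libraries and 212 ± 49.7 in the p16 KO RUN libraries, with only replicate 14 of the latter inside the p16 WT RUN range. The Set E difference was 0.46 (SE 0.17, limma unadjusted p = 0.0206, adjusted p = 1, exact permutation p = 0.0571), and without p16 WT RUN replicate 10 it was 0.37 (limma unadjusted p = 0.0614). The genotype difference was 0.31 (SE 0.12, limma unadjusted p = 0.0231, adjusted p = 0.696), and it missed an unadjusted p of 0.05 without p16 WT RUN replicate 10 (limma unadjusted p = 0.0524) or p16 KO RUN replicate 16 (limma unadjusted p = 0.0516), and without the 3 libraries low in nuclear RNA (0.29, limma unadjusted p = 0.057). In Set C the runners were lower by a log2 difference of -0.28 (SE 0.14, limma unadjusted p = 0.0735), which passed the threshold without p16 WT CTL replicate 1 (limma unadjusted p = 0.0332) or p16 WT RUN replicate 12 (limma unadjusted p = 0.012). Tcf7l2, which is abundant in thalamus, was also higher in p16 KO mice over both treatments, by 0.34 (SE 0.09, limma unadjusted p = 0.00209, adjusted p = 0.672), and its part in the Calb2 difference was not tested. The 7 mossy cell genes summed to 127 to 181 TPM in the p16 WT RUN libraries and 134 to 167 in the p16 KO RUN libraries. By limma at an unadjusted p under 0.05, 1 of the 7 was higher in the genotype difference and 0 in Set E. Their medians were 0.10 and 0.04. Of 9 GABAergic interneuron genes, 1 was higher in the genotype difference by limma at an unadjusted p under 0.05, with a median of 0.02. In Set E 0 were higher and 0 lower, with a median of -0.07. The shares of all genes as higher were 3.8% and 2.11%. The part of mossy cells and of interneurons in the Calb2 difference was not tested.

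Tubb3 was at 249, 281, 218 and 245 TPM in the p16 WT CTL libraries, 245, 239, 288 and 322 in the p16 KO CTL libraries, 248, 303, 226 and 300 in the p16 WT RUN libraries, and 276, 302, 300 and 226 in the p16 KO RUN libraries. No group stood apart, and its largest difference of the 5 sets was 0.20 (SE 0.13, limma unadjusted p = 0.167), in Set B. This value was 0.12 to 0.28 in the fits without 1 library.

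**Figure D2:**
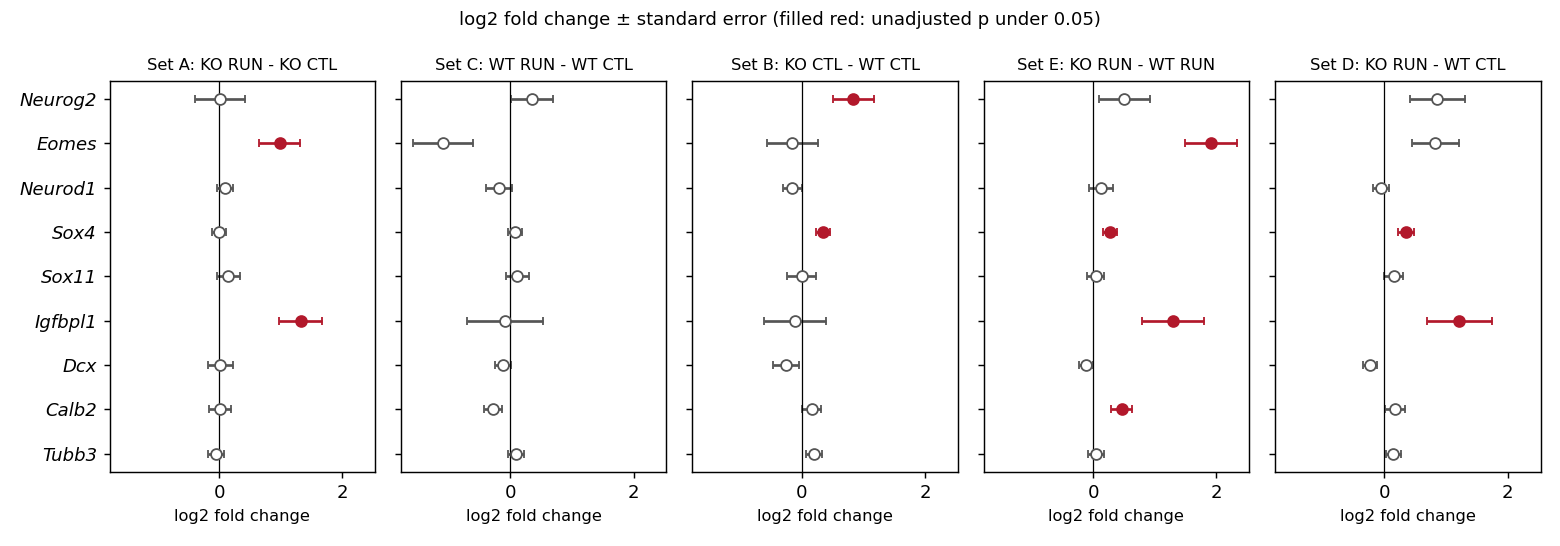
log2 difference (horizontal axis, on log2(TPM + 0.1)) with its standard error for each marker in Sets A, C, B, E and D; filled red points have an unadjusted p under 0.05. Eomes and Igfbpl1 lie to the right in Set A (0.98 and 1.32) and Set E (1.92 and 1.30), whereas Dcx, Neurod1, Sox11 and Tubb3 have open points in all 5 panels.

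Counted over the 9 markers, Set A had 2 at an unadjusted p under 0.05, Eomes and Igfbpl1, both higher in the p16 KO RUN libraries. Over all genes, 18.5% passed this threshold in Set A, 10.7% as higher, and 5.83% were higher without any overlap of libraries. The 2 of 9 is therefore not far from the background, and the median difference of the markers, 0.02, was that of all genes, 0.02. Set E had 4 (Eomes, Sox4, Igfbpl1 and Calb2), all higher in the p16 KO RUN libraries, against 3.87% of all genes, 2.11% as higher, and 1.36% higher without overlap, where Eomes was the only marker. The median of the markers in Set E was 0.28, and of all genes 0.00. The markers were chosen with earlier results of these data known, and the study itself lists Eomes among genes changed in Sets A and E. The counts of markers here and below, beside the shares of all genes, are therefore a description and no test of the list. Set B had 2 (Neurog2 and Sox4), both higher in the p16 KO CTL libraries, against 6.69% of all genes, 3.15% as higher, with 1.46% higher without overlap.

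Set D had 2 markers at this threshold (Sox4 and Igfbpl1), both higher in the p16 KO RUN libraries, against 8.63% of all genes and 4.97% as higher. Set C had 0 of 9 by limma at an unadjusted p under 0.05, against 4.81% of all genes. The running difference over both genotypes also had 0 of 9, against 17.5% of all genes. The genotype difference over both treatments had 4 (Neurog2, Eomes, Sox4 and Calb2), all higher in p16 KO, against 6.94% of all genes and 3.8% as higher. Of these, Eomes was not higher in sedentary p16 KO mice, at -0.16 in Set B. The interaction had 1, Eomes, against 5.48% and 2.95%. The sets share libraries, so that their counts are not independent: Sets A, D and E share p16 KO RUN, whereas Sets A and C share none, nor do Sets B and E.

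None of the 9 markers reached an adjusted p under 0.05 in any comparison. By limma this threshold was passed by 3 genes in Set A (0.0173%), 1 in Set E (0.00577%) and 138 in the running difference (0.797%), and by 0 genes (0%) in Set B, Set C, Set D, the genotype difference and the interaction, where 1158, 833, 1495, 1202 and 949 genes had an unadjusted p under 0.05. In the running difference, leaving out 1 library gave 37 genes (without p16 KO RUN replicate 14) to 244 (without p16 WT CTL replicate 3).

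The cell cycle genes, which mark dividing cells of any type, among them those that precede and include the Eomes stage, were compared beside the markers. The type of the cells in which they differed was not tested. This list too was chosen with earlier results of these data known, and the study lists Mki67 and Top2a among genes changed in Sets A and E. Of 10 proliferation genes, Cdk1 and Ccnb1 passed the filter on low values only through the p16 KO RUN libraries, with means of 0.0522 and 0.0824 TPM in the other 12, and are left out of the counts. Of the other 8, 4 were higher in Set A at an unadjusted p under 0.05 (Mki67, Top2a, Ccna2 and Tk1), 3 in Set E and 3 in the interaction (Mki67, Top2a and Ccna2 in both), and 0 in Set C, with medians of 0.66, 0.09, 0.50 and 0.04. Of the 17211 genes that pass the filter in those 12 libraries, 10.7% were higher at this threshold in Set A and 2.02% in Set E. The share was 2.91% in the interaction and 2.7% in Set C. Mki67, the gene of the Ki-67 antigen of cycling cells, was at 1.97, 1.80, 2.15 and 2.19 TPM in the p16 KO RUN libraries and at 0.491 to 1.59 in the other 12 libraries. The lowest 3 of all 16 Mki67 values, 0.527, 0.63 and 0.491 TPM, belonged to the libraries low in nuclear RNA, p16 WT CTL replicate 2 and p16 KO CTL replicates 6 and 7, and so did the lowest 3 of Ccna2, the gene of cyclin A2, at 0.805, 0.818 and 0.656. Top2a, a topoisomerase of dividing cells, was at 0.763, 1.36, 0.844 and 0.958 TPM in the p16 KO RUN libraries and at 0.125 to 0.546 in the others. Both were above all other libraries in every p16 KO RUN library, a pattern that 17 genes of 17317 had (0.0982%), 16 of them among those 17211, and none of the 9 markers. In Set A the difference was 1.32 (SE 0.22, limma unadjusted p = 0.000187, adjusted p = 0.0861) for Mki67 and 1.18 (SE 0.28, limma unadjusted p = 0.00221, adjusted p = 0.151) for Top2a. In the interaction it was 1.05 (SE 0.39, limma unadjusted p = 0.0163) for Mki67 and 1.56 (SE 0.50, limma unadjusted p = 0.00649) for Top2a, both with an adjusted p of 0.797. Not all of the list was higher in p16 KO RUN. Pcna, the sliding clamp of DNA replication and the most abundant of the 10, had its lowest mean there, 78.6 TPM against 81.8 to 84.6 in the other groups, and was at -0.13 (SE 0.06, limma unadjusted p = 0.0651) in Set A and at -0.10 (SE 0.04, limma unadjusted p = 0.0224) in the running difference. Without the 3 libraries low in nuclear RNA these were -0.05 (limma unadjusted p = 0.421) and -0.04 (limma unadjusted p = 0.237). Birc5 was at -0.14 (SE 0.52) in Set A, though its mean TPM was higher in p16 KO RUN, 1.39 against 1.20 in p16 KO CTL. The lowest p16 KO RUN library was at 0.264 TPM. Mcm2 was at -0.08 (SE 0.18) in Set E. The count of the 8 genes in Set A was 2 to 4 over the other settings and 3 to 4 over the fits without 1 library. In Set E it was 1 to 3 and 2 to 3, and in the interaction 2 to 3 and 2 to 4. Without the 3 libraries low in nuclear RNA, 2 of the 8 genes were higher in Set A, with a median of 0.39, against 4.88% of the 17211 genes. Mki67 was then 1.06 (SE 0.20, limma unadjusted p = 0.00117) and Top2a 1.32 (SE 0.32, limma unadjusted p = 0.00456), while Ccna2 went from 0.97 (limma unadjusted p = 0.0114) to 0.44 (SE 0.21, limma unadjusted p = 0.0731). In the interaction 3 of the 8 were then higher, against 3.75% of the 17211, Mki67 by 1.08 (SE 0.30, limma unadjusted p = 0.00314) and Top2a by 1.96 (SE 0.52, limma unadjusted p = 0.00271).

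**Figure D3:**
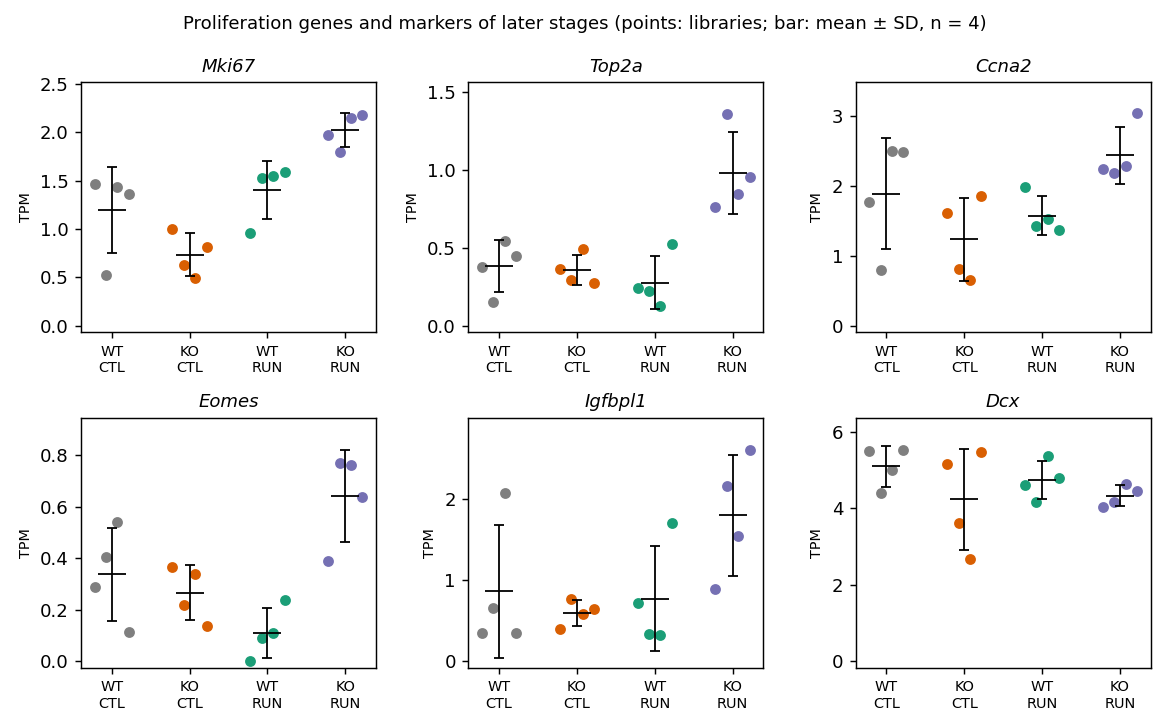
TPM of Mki67, Top2a and Ccna2 (dividing cells), Eomes (intermediate progenitors), Igfbpl1 and Dcx (neuroblasts) in each library (points), with the mean and SD of each group of 4; the vertical axes are linear and include 0. Mki67 was at 1.8 TPM or more in the p16 KO RUN libraries and at 1.59 or less elsewhere, whereas Dcx was at 4.04 to 4.65 in the p16 KO RUN libraries, inside the range of the other groups.

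Among 10 genes of stem cells and radial glia, 9 were tested, and in Set A 1 was higher and 2 were lower at an unadjusted p under 0.05, against 18.5% of all genes in either direction and 10.7% as higher. Sox2, a factor of neural stem cells, was lower by a log2 difference of -0.38 (SE 0.11, limma unadjusted p = 0.00612, adjusted p = 0.174), Hopx by -0.74 (SE 0.24, limma unadjusted p = 0.0125), and Vim was higher by 0.21 (SE 0.07, limma unadjusted p = 0.0133). In Set B, 3 were higher, against 6.69% of all genes in either direction and 3.15% as higher: Fabp7 (0.56, SE 0.23), Sox2 (0.34, SE 0.14) and Hopx (0.46, SE 0.20), with limma unadjusted p of 0.0358, 0.0424 and 0.0477. Sets A and B share the p16 KO CTL libraries, where all 3 had their highest means. Of those libraries, replicates 6 and 7, low in nuclear RNA, had the highest Sox2, 76.87 and 69.97 TPM against 61.3 and 58.0, and replicate 6 had the highest Fabp7 and Hopx, 160 and 243 TPM. Without the 3 libraries low in nuclear RNA the Set A difference was -0.18 for Sox2 (SE 0.07, limma unadjusted p = 0.0272), -0.73 for Hopx (SE 0.26, limma unadjusted p = 0.0275) and 0.15 for Vim (SE 0.07, limma unadjusted p = 0.085). In Set B 5 of the 9 genes were then higher, against 6.68% of all genes in either direction and 553 of 17317 as higher. Among them were Fabp7 (0.46, SE 0.08), Sox2 (0.27, SE 0.06) and Hopx (0.51, SE 0.20). For p16 KO CTL this fit rests on replicates 5 and 8 alone, and replicate 8 had the high Pou3f1 of CA1.

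Of 18 other genes of newborn neurons, 2 passed the adjusted threshold in the running difference over both genotypes, against 0.797% of all genes. Stmn1, a microtubule-destabilizing phosphoprotein of young neurons, fell by 0.31 on the log2 scale (SE 0.05, limma adjusted p = 0.00858), with 326 to 364 TPM in the 8 sedentary libraries and 252 to 313 in the 8 running libraries. Its mean over the 16 libraries was 318.5 TPM against 4.60 for Dcx, and which cells hold this RNA was not tested. Neurod2, a factor of neuronal differentiation that mature neurons keep, rose by 0.49 (SE 0.09, limma adjusted p = 0.0176), with 174 to 232 TPM in sedentary and 239 to 362 in running libraries. In Sets A and C the limma unadjusted p was 0.000431 and 0.00315 for Stmn1 and 0.00106 and 0.00537 for Neurod2. An unadjusted p under 0.05 was reached by 18.5% of all genes in Set A and 4.81% in Set C. The interaction was -0.08 (SE 0.09) for Stmn1 and 0.01 (SE 0.18) for Neurod2. Both kept an adjusted p under 0.05 in all 16 fits without 1 library, with limma adjusted p of 0.00779 to 0.0241 for Stmn1 and 0.00951 to 0.0442 for Neurod2. Without the 3 libraries low in nuclear RNA together, the differences were -0.26 (SE 0.05, limma adjusted p = 0.0978) and 0.49 (SE 0.11, limma adjusted p = 0.163), and 0 genes of 17317 then reached an adjusted p under 0.05 in the running difference by limma, where 840 were higher and 671 lower at an unadjusted p under 0.05. In Set A 2 of the 18 genes were higher (Neurod2 and Draxin) and 3 lower (Stmn1, Gap43 and Elavl2) at an unadjusted p under 0.05, 5 of 18 against 18.5% of all genes. Gap43, a growth cone protein, was at -0.34 (SE 0.11, limma unadjusted p = 0.0118) and Elavl2, a neuronal RNA-binding protein, at -0.48 (SE 0.21, limma unadjusted p = 0.0459), and without the libraries low in nuclear RNA at -0.35 (limma unadjusted p = 0.0393) and -0.46 (limma unadjusted p = 0.113). Draxin, a guidance protein of newborn neurons, had an interaction of 0.90 (SE 0.35, limma unadjusted p = 0.0205, adjusted p = 0.797) and a Set A difference of 0.67 (SE 0.29, limma unadjusted p = 0.0458), and without those libraries 0.80 (limma unadjusted p = 0.0781) and 0.60 (limma unadjusted p = 0.137).

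Cajal-Retzius cells are other neurons of the dentate gyrus that can hold some of the same genes. Of their 5 genes, Reln and Trp73 were higher in Set A, where 10.7% of all genes were, by 0.41 (SE 0.09, limma unadjusted p = 0.00169) and 0.51 (SE 0.21, limma unadjusted p = 0.0377), and Trp73 in Set E, where 2.11% were, by 0.38 (SE 0.13, limma unadjusted p = 0.0149). In the interaction Reln was at 0.25 (SE 0.11, limma unadjusted p = 0.0445) and Trp73 at 0.69 (SE 0.27, limma unadjusted p = 0.0223), against 2.95% of all genes as higher, and all 5 genes were positive, with a median of 0.48. Without the libraries low in nuclear RNA the Set A values were 0.35 (SE 0.10, limma unadjusted p = 0.00876) for Reln and 0.41 (SE 0.24, limma unadjusted p = 0.128) for Trp73, and the interaction 0.14 (SE 0.10, limma unadjusted p = 0.202) and 0.50 (SE 0.29, limma unadjusted p = 0.111). Lhx1 was lower in Set B, by a log2 difference of -1.26 (SE 0.35, limma unadjusted p = 0.00611), and Sets A and B share the p16 KO CTL libraries. Their summed level was 29.4 to 34.2 TPM in the p16 WT CTL libraries, 24.3 to 28.7 TPM in the p16 KO CTL libraries, 32.2 to 33.7 in the p16 WT RUN libraries and 31.0 to 38.5 in the p16 KO RUN libraries. The part of these cells in the Eomes difference was not tested.

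The markers varied among themselves together in ways that cut across the groups. Over the 16 libraries the log2 levels of Neurod1 and Sox11 had a Pearson r of 0.77, while Tubb3 ran opposite to both, with r of -0.86 and -0.74. These 3 genes varied with genes of other neurons: against the mean log2 level of 8 mature granule neuron genes, r was 0.73 for Neurod1, 0.80 for Sox11 and -0.82 for Tubb3, and over the 14 libraries left without those farthest from the median it was 0.78, 0.71 and -0.89. Against 9 GABAergic interneuron genes the values were -0.82, -0.66 and 0.88, of the opposite sign. They were -0.81, -0.48 and 0.84 without the farthest libraries. Against 7 CA1 and CA3 pyramidal neuron genes they were -0.66, -0.62 and 0.72, and -0.59, -0.31 and 0.68 without the farthest libraries. Eomes and Igfbpl1 had r = 0.64 with each other, and 0.08 and 0.26 with the granule neuron genes. Sox4 had r = 0.69 with the oligodendrocyte precursor genes (0.48 without the farthest libraries) and 0.40 with the stem cell and radial glia genes (0.50), and Neurog2 had 0.73 with the stem cell and radial glia genes (0.69). These are descriptions over 16 libraries that share scaling, dissection and group differences.

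**Figure D4:**
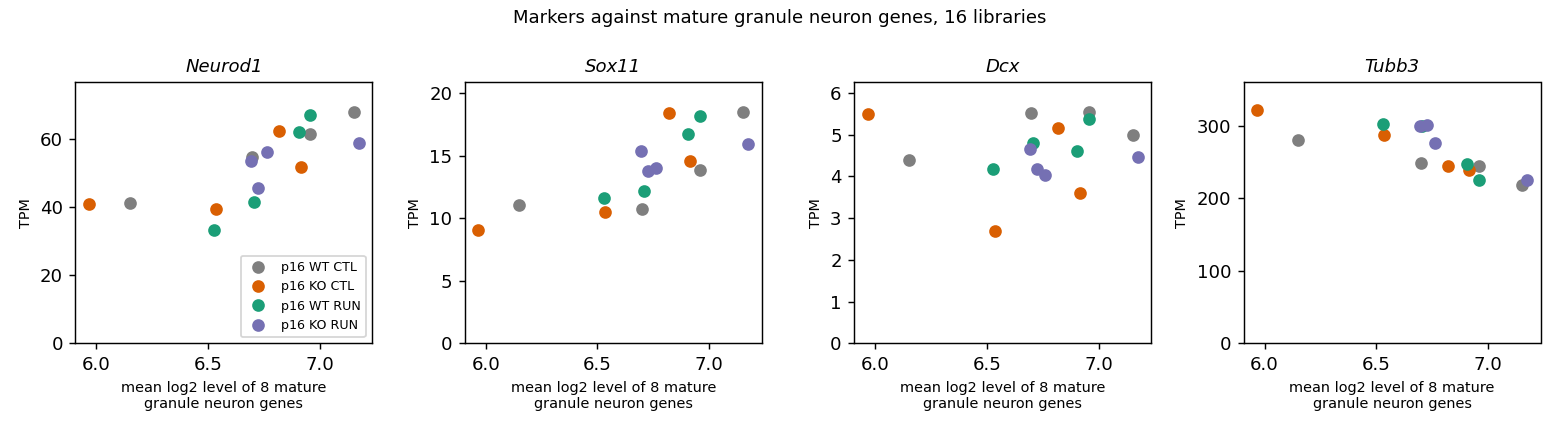
TPM of Neurod1, Sox11, Dcx and Tubb3 (vertical axes, linear from 0) against the mean log2 level of 8 mature granule neuron genes (horizontal axis) in each of the 16 libraries, coloured by group. Neurod1 and Sox11 go up and Tubb3 goes down along the axis (r = 0.73, 0.80 and -0.82). Dcx had r = -0.03, and 0.39 over the 14 libraries left without those farthest from the median.

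Of the genes averaging 1 TPM or more, those most like each marker over the 16 libraries were as follows, as a description. The nearest to Eomes were Tpm1 (r = 0.86), Arhgap11a (0.78) and 1700010I14Rik (0.76), and to Igfbpl1 Tpm1 (0.75), Grina (0.75) and Rtn4r (0.75), so that Tpm1 came first for both. Among the nearest to Neurod1 were Kcnj9 (0.95) and Ocln (0.91), and the nearest to Sox11 were Tmem38b (0.92), Sec23ip (0.92) and Slc25a30 (0.90), and to Tubb3 Acot7 (0.95), Tubb4b (0.95) and Rell2 (0.95). Dcx was nearest to Gm6654 (0.95), 1700015E13Rik (0.87) and Mir8094 (0.87), Sox4 to Abcd2 (0.82), Brd2 (0.79) and Htra3 (0.79), Calb2 to BC026585 (0.83), Mesdc2 (0.82) and Gpkow (0.81), and Neurog2 to Abtb2 (0.77), 1700066M21Rik (0.75) and Mlec (0.74).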

How the data were processed

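RNA-seq abundances of 16 libraries were analysed, in 4 groups of 4 from the sample labels. Per the study's methods and the labels, the authors demultiplexed with bcl2fastq 2.20, masked adapters with Cutadapt 1.11, trimmed with ERNE, aligned paired reads of 150 bases to mm10 with STAR and computed abundances with StringTie. Their own tests used htseq-count and DESeq2 on counts that were not used here.

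The TPM values, as deposited, are StringTie abundances per gene, which take the length of the gene into account and have an equal sum in every library. FPKM values, also given per the file headers, served in 1 alternative. The coverage signal, as deposited, is the mean depth per base and served for relative depth and approximate read numbers, so counting error of single genes is known only roughly.

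Entries of the same name were summed. Libraries were scaled by a median ratio, taken over the 13226 genes that reached 1 TPM throughout. Genes averaging under 0.1 TPM were dropped, which left 17317, and the log2 of scaled TPM plus 0.1 was fitted by limma 3.58.1 (R 4.3.3, empirical Bayes, variance trend), each set on its 8 libraries, and running, genotype and interaction on 16. Adjusted p-values are Benjamini-Hochberg values across the whole table. Single markers were also compared by two-sided exact permutation of the mean log2 difference. The script was tested on simulated data.

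Named were all 9 markers, for each the 3 genes of highest Pearson r, from each other list up to 3 genes a comparison of smallest unadjusted p under 0.05, genes defining a cell type, and Cdkn2a. The text gives those that bear on a marker, and other lists by summed or mean levels. One gene of high r is not reported here. The markers and lists were chosen with earlier results of these data known. The labels name no batch, and replicate numbers are not shared between groups. Libraries come from separate pairs of mice, per the study's methods. Alternatives were the filter, the added constant, the scaling, FPKM, the variance trend, the handling of repeated names, a nuclear RNA score as covariate, 1 fit over all libraries, and leaving out each library. Leaving out the 3 libraries low in nuclear RNA, and the filter on cell cycle genes outside p16 KO RUN, were added after seeing the data.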

Additional observations from a re-analysis of the deposited data

Results flagged for a closer look

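The response of Eomes to running differed between the genotypes: the log2 difference of p16 KO RUN from p16 KO CTL minus that of p16 WT RUN from p16 WT CTL was 2.07 (SE 0.59, limma unadjusted p = 0.0031, adjusted p = 0.797). Eomes was higher in runners in p16 KO mice (0.98, SE 0.33) and its mean was lower in runners in p16 WT mice (-1.09, SE 0.49). The interaction kept an unadjusted p under 0.05 in all 16 fits without 1 library, but its size moved from 0.62 to 3.28 with the constant added before the logarithm, 1 or 0.01 TPM, and the values in p16 KO and p16 WT mice moved from 0.36 to 1.22 and from -0.27 to -2.06. The comparison in p16 KO mice rests on about 9 to 45 reads per library in p16 KO CTL and 25 to 49 in p16 KO RUN. That in p16 WT mice rests on about 8 to 60 in p16 WT CTL and 0 to 15 in p16 WT RUN, where replicate 9 had 0 TPM. Of the 36 combinations of marker and group, 0 passed Dixon's test of the highest or lowest library of 4 at the 95% level. Groups of 4 pass only at a wide gap: Neurog2 in p16 KO RUN replicate 15, at 1.65 TPM against 0.386 to 0.633, did not.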

How the results depend on the processing

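Of 1613 repeats of the 72 differences of single markers, 47 lost and 32 gained an unadjusted p under 0.05. In 90 repeats, of 25 differences, the sign changed, all between values that missed this threshold, among them Dcx in Sets A and B and the interaction and Neurog2 in Set A without the 3 libraries low in nuclear RNA. The number of markers at this threshold changed as follows, each against the value with all settings as reported. With only genes of a mean of at least 1 TPM, where Eomes and Neurog2 were not tested, it was 1 in Set A and in Set B, 3 in Set E, 2 for genotype and 0 for the interaction. No filter gave 3 in Set E. Quantile normalization gave 1 in Set A. The nuclear RNA score as a covariate gave 1 in Set B, 4 in Set D and 1 for running. FPKM without scaling gave 1 in Set C and 1 in Set D, and no variance trend and 1 fit over all libraries gave 1 in Set C, the latter also 3 in Set D. Leaving out the 3 libraries low in nuclear RNA, an alternative chosen after seeing the data, gave 1 in Set B, 3 in Set D (Sox4, Dcx and Neurog2), 1 for running and 3 for genotype. In Set D equal counts hid different members, Dcx having passed and Igfbpl1 not under quantile normalization, without a filter and without a variance trend, and Eomes having passed and Igfbpl1 not with a constant of 1 TPM. Without 1 library each, the count was 2 in Set A throughout, 1 to 2 in Set B, 0 to 2 in Set C, 0 to 4 in Set D, 2 to 4 in Set E, 0 to 1 for running, 2 to 5 for genotype and 1 to 2 for the interaction. Set D reached 0 without p16 WT CTL replicate 4 or without p16 KO RUN replicate 14 or 16, where Sox4 and Igfbpl1 both missed the threshold. Apart from the filter, the cause of these changes was not tested. No paired analysis was possible because the groups share no replicate number. The few reads of Eomes, Neurog2 and Igfbpl1 limit what can be seen in them.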
